A study of Homo sapiens with 2 samples.

Results

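The genes described here lie along a single stretch of the distal long arm of chromosome 13, in bands 13q32 to 13q34, from UGGT2 on the centromeric side to ANKRD10 on the telomeric side. They are 37 of the 52 protein-coding genes that RefSeq (GRCh38.p14) places between these ends. A probe annotated with the current or an older symbol was present for 28 of the 37, among 12445 named genes in all, and these 28 had 30 probes. UGGT2 was annotated as UGCGL2, IPO5 as RANBP5, UBAC2 as PHGDHL1, POGLUT2 as KDELC1, ABHD13 as C13orf6, GPR183 as EBI2 and NALCN as VGCNL1. No probe carried a name of the other 9, which were OXGR1, GGACT, TMTC4, BIVM, ARGLU1, MYO16, NAXD (listed as CARKD), CARS2 and ING1. The members were chosen with their values on these arrays known, so those values are given as a description and without a test.

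The study asked how expression changes in mesothelioma cells when CD26, the cell surface dipeptidyl peptidase encoded by DPP4, is lowered or raised. Total RNA was hybridised to 2 arrays of 2 colours. On the depletion array, CD26-depleted ACC-MESO1 cells (Cy3) were set against control ACC-MESO1 cells (Cy5). On the transfection array, MSTO-211H cells that carried CD26 in the vector pLNCX2 (Cy3) were set against control MSTO-211H cells (Cy5). ACC-MESO1 and MSTO-211H are established human mesothelioma cell lines, grown here in serum-containing medium. The depleting agent is an siRNA in one label and an shRNA in another, and the sources used here give neither the treatment of the control cells nor whether the manipulated cells were a pool or a clone. Each comparison had 1 array, with no replicate and no dye swap, so no p-value or replicate error can be given. Every value below is a log2 ratio of manipulated over control cells, as the authors normalized it, and positive means higher in the manipulated cells.

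Neighbouring genes on a chromosome arm need share no function. A change in the number of copies of a chromosome segment is known to shift the RNA of many of the genes it carries in the same direction. Tumour cell lines are known to differ in copy number between cultures and subclones. DNA was not measured in this study, so the arrays show RNA ratios along the chromosome, and the part of copy number in them was not tested.

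DPP4 had a log2 ratio of -3.92 in depleted ACC-MESO1 cells and 5.51 in transfected MSTO-211H cells, both in the direction of the labels. The depletion array had values for 10347 genes, with a median of 0.01, and the transfection array for 9359 genes, also with a median of 0.01. Where a gene had several probes, their pooled SD was 0.42 on the depletion array (566 genes) and 0.45 on the transfection array (471 genes). This spread is the nearest to a repeat measurement among these values, but different probes of a gene need not read the same transcripts. It is therefore not the error of a single probe. It exceeds many of the single-gene ratios below. A log2 ratio gives no level, so whether the cells expressed mesothelial markers could not be read from these values. Among the mesothelial markers, 9 of 10 had a value on the depletion array (-0.37 to 1.38) and 8 on the transfection array (-1.31 to 0.66). On the depletion array, values spanned -0.14 to 0.60 for 4 of 7 fibroblast markers, -0.07 to 0.24 for 2 of 6 lymphocyte markers, 0.34 to 0.93 for 3 of 6 myeloid markers and -0.22 to 0.29 for 5 of 6 endothelial markers. On the transfection array, the spans were -0.77 to 0.75 for 4 fibroblast, -0.76 to 1.88 for 3 lymphocyte, -0.89 to 0.46 for 3 myeloid and -0.51 to 0.57 for 4 endothelial markers. The part of such cells in the results was not tested.

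In CD26-transfected MSTO-211H cells the block was lower than in control cells almost throughout. Of the 22 members with a value, 20 were below 0, a share of 90.9%, whereas 49.3% of all genes on that array were below 0. Their median log2 ratio was -0.49, with a 95% order-statistic interval of -0.59 to -0.22 that covers the spread between members and not the error of the array. That is 0.50 below the median of all genes (difference -0.50). At a log2 ratio of -0.5 or less, which is at least 1.41-fold lower, there were 11 of 22 members (50%), against a background of 9.4% of all genes. The values chose the members, so nothing is read from the excess. At least 2-fold lower were 0 of 22 (1.37% of all genes), and at least 2-fold higher 0 of 22 (4.09%). These background shares are low, so nothing is read from 0 of 22. The lowest members, STK24 and UGGT2, were both 1.90-fold lower.

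In CD26-depleted ACC-MESO1 cells the same genes lay on both sides of 0. Of 25 members with a value, 10 were above 0 and 15 below (60%, with 48.7% of all genes below 0). The median was -0.09, with an interval over members of -0.18 to 0.18. There were 6 members at -0.5 or less (24%, background 9.8%) and 3 at 0.5 or more (12%, background 12.8%). Again 0 of 25 were at least 2-fold lower (1.56% of all genes) and 0 of 25 at least 2-fold higher (3.31%). Nothing is read from these counts either. The SD over members was 0.47 on this array (25 genes) and 0.34 in transfected MSTO-211H cells (22 genes). Over all genes the SD was 0.48 after depletion and 0.50 after transfection. The members were chosen with these values known, so nothing is read from the difference in spread.

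These directions depend on where 0 is set. Centring each array on 34 ribosomal protein genes in place of its median moved every gene up, by 0.33 on the depletion array and by 0.29 on the transfection array. On that scale 14 of 22 members were below 0 after transfection, as were 21.3% of all genes, and the block median was -0.21. After depletion 7 of 25 members were then below 0, with 17.8% of all genes, and the block median changed sign to 0.24. The distance of the block from all genes is the same on either scale, at -0.10 after depletion and -0.50 after transfection.

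**Figure D1:**
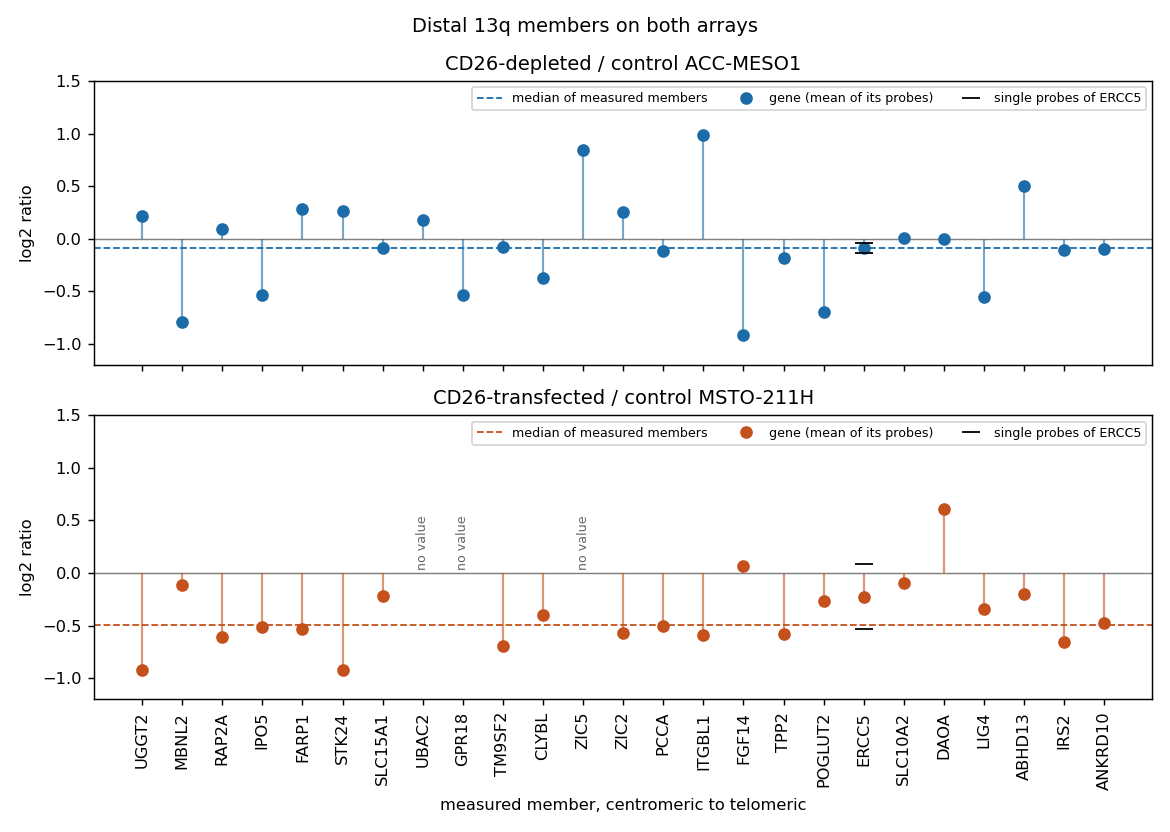
Log2 ratio of manipulated over control cells (vertical axis) for each measured member in gene order (horizontal axis), on the depletion array (upper panel) and the transfection array (lower panel). Points are genes, short black bars the single probes of ERCC5, and dashed lines the member medians, -0.09 in the upper and -0.49 in the lower panel; the lower panel has 20 of 22 points below 0 and the upper panel 15 of 25.

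The start regions of 3 members are printed because these genes mark the ends of the range on the transfection array. STK24 and UGGT2 had the lowest ratios of the block and DAOA the highest. The sequences are RefSeq promoter windows of GRCh38.p14, from 250 bases before to 50 bases after a transcription start, read 5′ to 3′ on the gene's strand. Capitals mark the GC box GGGCGG or its reverse complement CCGCCC, a motif bound by Sp1-type factors, and neighbouring matches can overlap. The STK24 window is chr13:98577058-98577357 on the minus strand, the more CpG-rich of 2 listed for this gene, with 51 CpG dinucleotides and 6 matches. The other STK24 window, not printed, has 8 CpG dinucleotides and 0 matches. The UGGT2 window is chr13:96053352-96053651 on the minus strand, with 37 CpG dinucleotides and 1 match. The DAOA window is chr13:105465617-105465916 on the plus strand, the first of 3 listed, with 1 CpG dinucleotide and 0 matches.
STK24: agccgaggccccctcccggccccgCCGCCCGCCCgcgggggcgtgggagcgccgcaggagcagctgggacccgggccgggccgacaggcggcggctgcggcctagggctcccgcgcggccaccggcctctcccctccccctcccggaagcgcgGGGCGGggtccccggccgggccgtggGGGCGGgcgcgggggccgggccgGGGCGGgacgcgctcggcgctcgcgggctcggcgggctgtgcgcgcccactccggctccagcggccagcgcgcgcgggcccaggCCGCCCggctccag
UGGT2: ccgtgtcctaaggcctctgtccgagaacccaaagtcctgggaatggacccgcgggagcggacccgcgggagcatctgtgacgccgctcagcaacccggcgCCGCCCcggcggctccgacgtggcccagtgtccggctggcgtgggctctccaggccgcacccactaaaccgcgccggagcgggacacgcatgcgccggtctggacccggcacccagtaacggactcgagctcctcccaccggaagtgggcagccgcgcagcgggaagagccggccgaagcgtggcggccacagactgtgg
DAOA: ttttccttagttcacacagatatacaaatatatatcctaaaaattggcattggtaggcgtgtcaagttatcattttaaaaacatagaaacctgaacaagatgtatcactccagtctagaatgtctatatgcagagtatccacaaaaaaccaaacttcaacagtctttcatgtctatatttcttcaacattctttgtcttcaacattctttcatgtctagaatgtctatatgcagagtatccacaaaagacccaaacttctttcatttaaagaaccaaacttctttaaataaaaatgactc

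Base composition at the start sites differed within the block. The 37 members had 58 windows in RefSeq, and 28 of them (48.3%) held the GC box on either strand, as did 45.0% of 35116 windows of all genes. In the 11 members at -0.5 or less on the transfection array, 10 of 13 windows held it and the median window had 30 CpG dinucleotides. In the 11 other members with a value there, 8 of 21 windows held it and the median was 19. Over the windows of all members with a value on that array, 52.9% held it and the median was 25. The median over the 35116 windows of all genes was 14. Some genes have several windows, and counted by gene, with a match in any window, the motif was in 9 of 11 of the lower members, in 6 of 11 of the others and in 48.3% of 27305 genes. The figures for all genes include genes with no value on the arrays, so they are not a background of measured genes. Without a match among the lower members were IPO5, with 5 CpG dinucleotides in its window and a ratio of -0.52, and TM9SF2, with 25 CpG dinucleotides and a ratio of -0.70. ITGBL1, at -0.59, had 9 CpG dinucleotides and 1 match. Among the other members, FGF14, at 0.07, had 4 windows with 1 to 50 CpG dinucleotides and up to 3 matches. The TATA box TATAAA, counted on both strands, was in 4 of the 58 windows (6.9%) and in 11.5% of all windows. The split was made after the values were seen, windows of 1 gene can overlap, and a match is a stretch of letters and not a bound site.

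The 5 measured members that handle protein folding, trafficking and breakdown were all below 0 on the transfection array, as were 20 of 22 members of the block. UGGT2, a relative of the endoplasmic reticulum glucosyltransferase that senses misfolded glycoproteins, was at 0.22 in depleted ACC-MESO1 cells and -0.93 in transfected MSTO-211H cells. The second value is 1.90-fold lower and at the 1.87th percentile of all genes. TM9SF2, a membrane protein of the endosome and Golgi system, was at -0.08 after depletion and -0.70 after transfection. TPP2, a large cytosolic peptidase that trims peptides released by the proteasome, was at -0.18 after depletion and -0.58 after transfection. IPO5, an importin that carries proteins into the nucleus, was at -0.53 after depletion and -0.52 after transfection, and was the only member at -0.5 or less on both arrays. POGLUT2, an endoplasmic reticulum enzyme that adds glucose to secreted proteins, was at -0.70 after depletion and -0.27 after transfection. UBAC2, an endoplasmic reticulum membrane protein, was at 0.18 on the depletion array and had no value on the other. Over this group the median was -0.13 (6 genes) in depleted ACC-MESO1 cells and -0.58 (5 genes) in transfected MSTO-211H cells.

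The kinase, GTPase and adaptor genes held the lowest value of the block. STK24, a kinase of the sterile 20 family, was at 0.26 in depleted ACC-MESO1 cells and -0.93 in transfected MSTO-211H cells, where it was 1.90-fold lower than in control cells and at the 1.86th percentile. RAP2A, a Ras-related small GTPase, was at 0.09 after depletion and -0.61 after transfection. FARP1, which encodes a FERM domain protein, was at 0.28 after depletion and -0.54 after transfection. IRS2, an adaptor of the insulin and IGF receptors, was at -0.11 after depletion and -0.66 after transfection. ITGBL1, a secreted protein related to the integrin beta chains, was the highest member on the depletion array at 0.99 (1.99-fold) and was at -0.59 on the transfection array. These 5 of the 6 measured genes of the group were at -0.5 or less on the transfection array. So were 11 of 22 members of the block and 9.4% of all genes. On the depletion array 4 of these 5 were above 0, as were 10 of 25 members. FGF14, an intracellular FGF that binds sodium channels, had the opposite order, with -0.92 on the depletion array, the lowest member there, and 0.07 on the transfection array.

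Genes of nuclear function lay on both sides of 0 on the depletion array and below 0 on the transfection array. ZIC2, a zinc-finger transcription factor of early development, was at 0.25 in depleted ACC-MESO1 cells and -0.57 in transfected MSTO-211H cells. Its neighbour ZIC5 was at 0.84 on the depletion array, at the 95th percentile of all genes, and had no value on the other. MBNL2, a regulator of alternative splicing, was at -0.79 after depletion and -0.11 after transfection. The DNA ligase gene LIG4, which seals double-strand breaks in end joining, was at -0.56 after depletion and -0.34 after transfection. ERCC5, the endonuclease of nucleotide excision repair that cuts on the 3′ side of a lesion, averaged -0.09 after depletion and -0.23 after transfection. ERCC5 was the only measured member with more than 1 probe. Its probes were at -0.14 and -0.04 on the depletion array, but at -0.53 and 0.08 on the transfection array, a difference of 0.61 within a single gene.

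Metabolic enzymes were between -0.50 and -0.20 on the transfection array. PCCA, the alpha subunit of propionyl-CoA carboxylase, was at -0.11 in depleted ACC-MESO1 cells and -0.50 in transfected MSTO-211H cells. CLYBL, a mitochondrial lyase, was at -0.37 after depletion and -0.40 after transfection. ABHD13, of the alpha/beta hydrolase fold family, was at 0.51 after depletion and -0.20 after transfection. ANKRD10, an ankyrin repeat gene at the telomeric end of the block, was at -0.10 after depletion and -0.48 after transfection.

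Few receptor and transporter genes had values. The intestinal peptide transporter gene SLC15A1 was at -0.09 in depleted ACC-MESO1 cells and -0.22 in transfected MSTO-211H cells. The ileal bile acid transporter gene SLC10A2 was at 0.01 after depletion and -0.10 after transfection. GPR18, a G protein-coupled receptor gene, was at -0.54 on the depletion array and had no value on the other. DAOA was at -0.003 in depleted ACC-MESO1 cells and 0.61 in transfected MSTO-211H cells, and was the only member there at 0.5 or more (4.55% of members, background 13.1%). The oxysterol receptor gene GPR183, the sodium leak channel gene NALCN and the ephrin ligand gene EFNB2 had a probe but no value on either array. The share of named genes with a value was 89.3% in the block and 83.1% among all genes on the depletion array, and 78.6% and 75.2% on the transfection array.

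The arrays could be set beside each other for 22 members. The median of the depletion ratio minus the transfection ratio was 0.38, with an interval over members of -0.02 to 0.71, and the median over 8956 genes was 0.02. The depletion ratio was the larger for 16 of 22 members (72.7%), as it was for 51.7% of all genes. There were 12 members below 0 on both arrays, 8 above 0 in depleted ACC-MESO1 cells and below 0 in transfected MSTO-211H cells, 2 of the reverse kind and 0 above 0 on both. The 11 members at -0.5 or less on the transfection array had a median of 0.09 on the depletion array, with 6 above 0. The arrays differ in cell line, manipulation and scale at once, and these cannot be told apart.

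**Figure D2:**
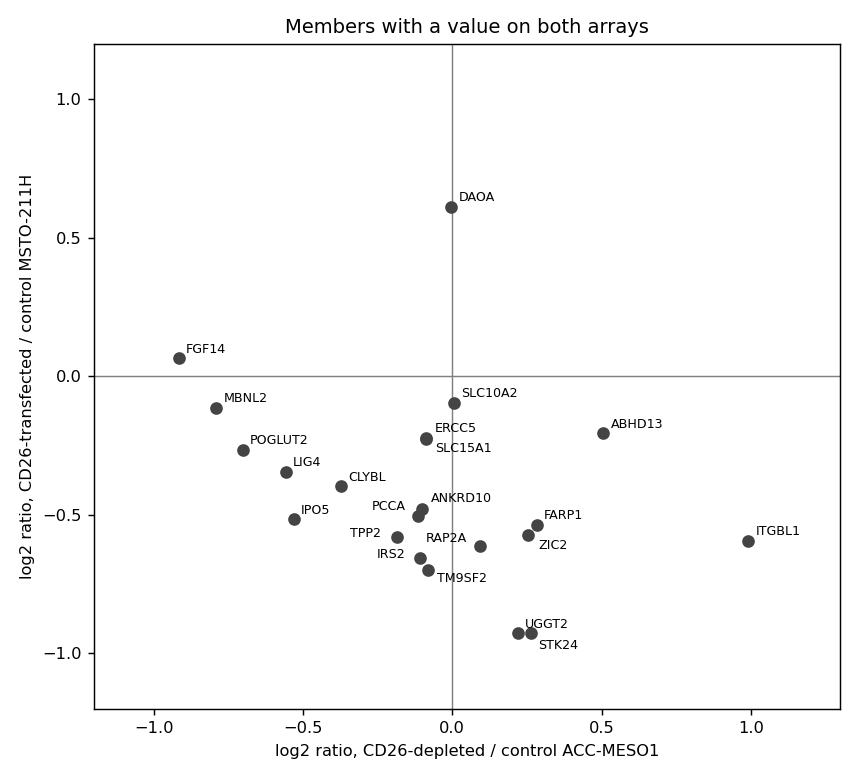
Each point is a member with a value on both arrays, with its log2 ratio on the depletion array on the horizontal axis and on the transfection array on the vertical axis. Points spread over both sides of 0 horizontally, while 20 of 22 lie below 0 vertically, with DAOA at 0.61 and FGF14 at 0.07 above it.

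The low ratios on the transfection array did not begin or end with the block. On the centromeric side, the nearest measured genes were SOX21 (-0.44), ABCC4 (-0.72), CLDN10 (-0.23), DZIP1 (-0.44) and DNAJC3 (-0.39), all below 0 like UGGT2 at the edge. On the telomeric side, ARHGEF7 (-0.43) and MCF2L (-0.54) were below 0, TUBGCP3 (0.48) and F10 (0.54) were above, and ATP11A had no value. In depleted ACC-MESO1 cells the same centromeric genes, in that order, were at -0.11, -0.65, -0.48, 0.07 and 0.55. The telomeric genes there were at -0.26 for ARHGEF7, -0.28 for MCF2L, -0.62 for TUBGCP3, -0.55 for F10 and -0.69 for ATP11A. Measured genes that lie between members but were not listed gave mixed values. DOCK9 was at 0.50 in depleted ACC-MESO1 cells and 0.23 in transfected MSTO-211H cells, the collagen gene COL4A1 at 0.22 after depletion and -0.58 after transfection, and RAB20 at -0.52 after depletion and -0.01 after transfection.

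Over chromosome 13 outside the block, 132 genes had a value on the transfection array, with a median of -0.23 (interval over genes -0.29 to -0.14), and 94 of them (71.2%) were below 0. The block median was 0.26 below this (difference -0.26, interval over members -0.36 to 0.01 with the other median taken as fixed), and the intervals of the medians overlapped. Of those genes, 27 (20.5%) were at -0.5 or less. The centromeric side had a median of -0.23 (119 genes) and the telomeric side -0.43 (13 genes, interval -0.65 to 0.01). In depleted ACC-MESO1 cells the 142 genes outside the block had a median of 0.03 (interval -0.05 to 0.14), with 46.5% below 0. There the block median differed from it by -0.12 (interval over members -0.22 to 0.15). The telomeric side was at -0.26 on that array (15 genes, interval -0.55 to 0.31). Not every gene of the chromosome was low on the transfection array. POSTN, the matrix protein gene periostin on the centromeric side, was at -0.23 in depleted ACC-MESO1 cells and 3.57 in transfected MSTO-211H cells. GAS6, near the telomere, was at 1.07 after depletion and -1.37 after transfection.

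A running median over 11 neighbouring measured genes was followed along the chromosome. On the transfection array it was below 0 at all 22 members, between -0.54 at STK24 and -0.23 at DAOA. It was also below 0 at every one of the 80 genes with a running median from SUCLA2 to the telomeric end, a stretch that takes in the block. Low values were not confined to that stretch. Over the whole centromeric side the running median was below 0 at 100 of 114 genes, with a high of 0.20 at TNFRSF19. Its lowest point on the chromosome was -0.56 at SPRYD7, well to the centromeric side of the block. The longest unbroken run of measured genes below 0 on the chromosome was 17 among 157 genes, from DIS3 to SLITRK5, also outside the block. The next longest on that array were 16 among 840 genes of chromosome 1 and 13 on each of chromosomes 9 (435 genes) and 20 (336 genes). On the depletion array the running median was below 0 at 66 of 160 genes and at 16 of 25 members, where it lay between -0.28 at ANKRD10 and 0.18 at IPO5. There too it was below 0 without a break over a distal stretch, from CLYBL within the block to the telomeric end. That stretch includes all 10 genes with a running median on the telomeric side and the lowest point on that array, -0.39 at MCF2L.

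**Figure D3:**
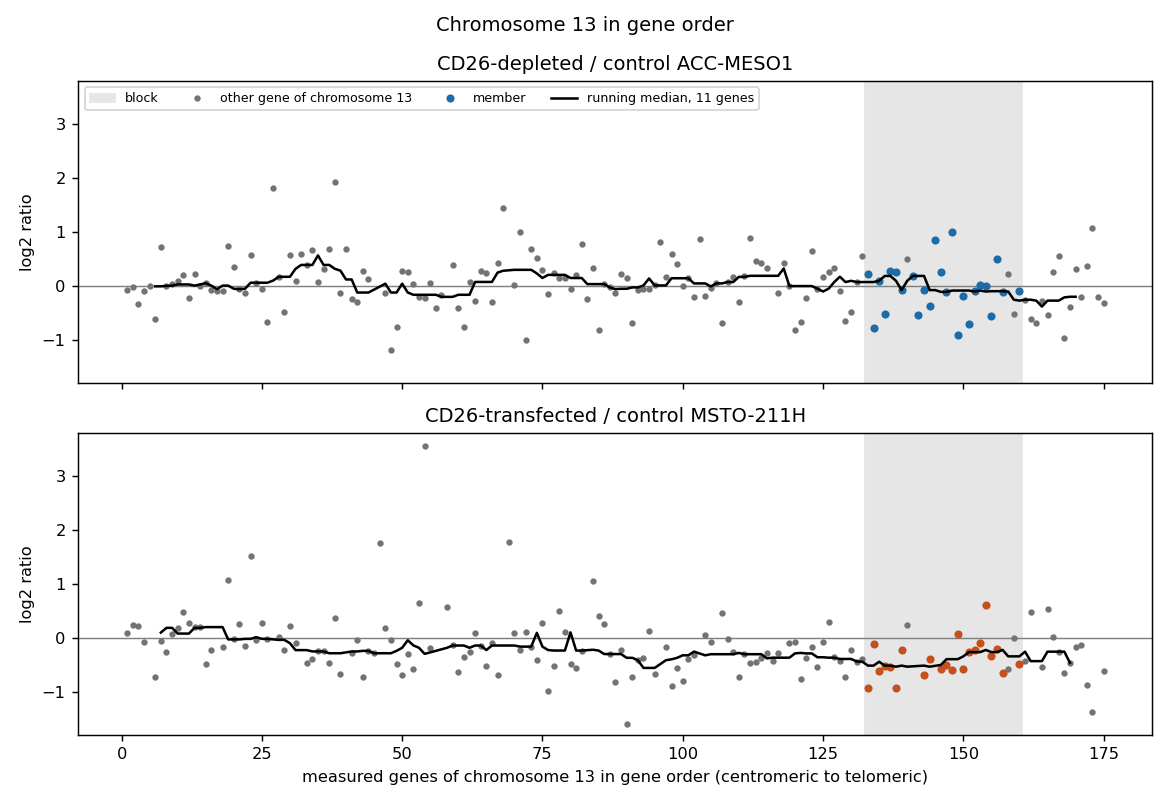
Log2 ratio (vertical axis) of every measured gene of chromosome 13 in gene order (horizontal axis), on the depletion array (upper panel) and the transfection array (lower panel). Coloured points are members, grey points other genes, the shaded span the block, and the line the running median over 11 genes. In the lower panel the line is below 0 through the block and at 100 of 114 genes on its centromeric side, without a break from SUCLA2 onward.

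Chromosome 13 as a whole, the block included, had the lowest median of the 23 chromosomes compared on the transfection array, at -0.25 (157 genes, interval over genes -0.30 to -0.17). The medians of the 22 others ran from -0.17 on chromosome 7 to 0.21 on chromosome 14. On the depletion array chromosome 13 had a median of 0.01 (170 genes, interval -0.06 to 0.09) and was the 10th lowest. The 22 others there ran from -0.04 on chromosome X to 0.06 on chromosome 6. Chromosome 13 was not alone in lying off 0 on the transfection array. The interval over genes lay wholly on one side of 0 for 12 of the 23 chromosomes there, above it for chromosomes 2, 5, 8, 14, 18 and 21 and below it for chromosomes 7, 12, 13, 19, 20 and 22. On the depletion array it did so for 3 of 23, chromosomes 1, 6 and 12, all above 0.

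**Figure D4:**
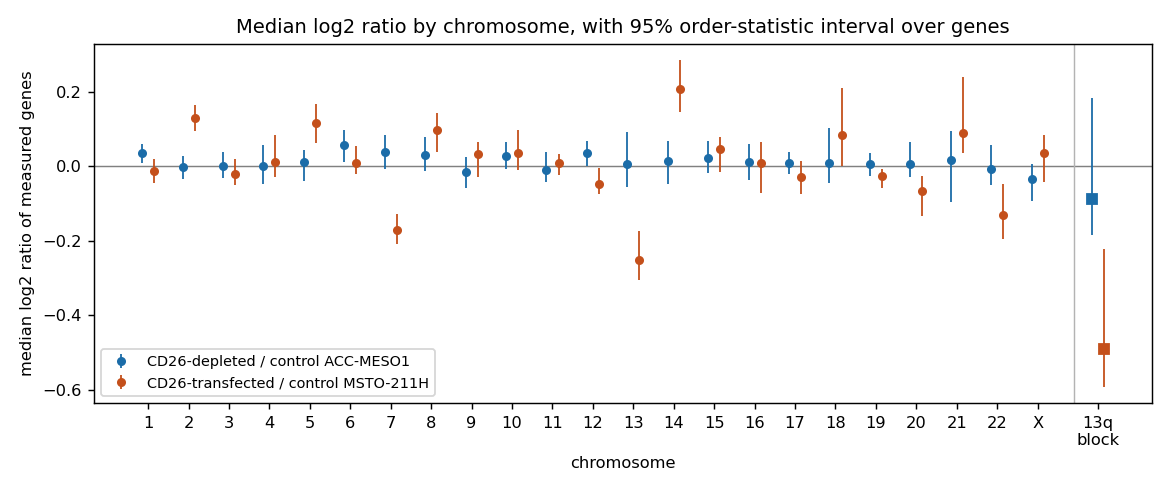
Median log2 ratio over the measured genes of each chromosome (circles) and of the block (squares, far right), on the depletion array and the transfection array. Bars are 95% order-statistic intervals over genes; on the transfection array chromosome 13 is at -0.25 and the block at -0.49, and on the depletion array chromosome 13 is at 0.01 and the block at -0.09.

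Relatives and working partners of the members, those with values all on other chromosomes, gave a comparison by function and not by position. Of 63 such genes, 37 had a value on the transfection array, with a median of 0.17 (interval over genes -0.06 to 0.30), and 14 of them (37.8%) were below 0. None of the 37 was at -0.5 or less (9.4% of all genes), and 8 (21.6%) were at 0.5 or more (13.1% of all genes). Past 2-fold there were 0 (1.37% of all genes lower and 4.09% higher). UGGT1, the close relative of UGGT2, was at 0.004 in depleted ACC-MESO1 cells and 0.41 in transfected MSTO-211H cells. MBNL1, of the MBNL2 family, was at -0.32 after depletion and 0.77 after transfection, and the kinase gene STK25 at 0.10 after depletion and 0.04 after transfection. IRS1 (-0.38 after depletion and -0.25 after transfection) and PCCB, the beta subunit that pairs with PCCA (-0.31 after depletion and -0.30 after transfection), were below 0 on both. In depleted ACC-MESO1 cells, 40 relatives had a median of -0.01, with 22 below 0 (48.7% of all genes). There was 1 at -0.5 or less (9.8% of all genes) and 2 at 0.5 or more (12.8%). Again 0 were past 2-fold (1.56% of all genes lower and 3.31% higher). The difference between members and relatives was not tested, since the members were chosen for their values.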

How the data were processed

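The deposited table gives, per the labels, normalized log2 ratios of manipulated over control cells for 24267 probes. Each column had a median of 0, and the sources used here do not state the authors' background correction or normalization. Empty values were left empty. Of the probes, 13395 carried 1 gene symbol, 0 several and 10872 none. RefSeq (GRCh38.p14) held 10076 symbols as current and 2285 as a synonym of a single gene; the other 113 stayed unchanged. A gene's value is the mean of its probes. RefSeq positions were used for gene order only, and promoter windows came from RefSeq.

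Members and gene lists were chosen with earlier results of these data known. All 37 members are named, with the 5 measured genes nearest on each side, probes that disagree, DPP4 and relatives past 2-fold (0 were, so the relatives named, POSTN and GAS6 were chosen after their values were seen). Lists were described by medians, counts and 95% order-statistic intervals over genes. Calls used log2 ratios of 0.5 and 1 in size, with no test at 1 array per comparison. Computation used Python 3.11.15, pandas 2.3.3, numpy 2.4.6 and scipy 1.17.1. Alternatives changed the probe rule, centring, spread, gene set and threshold. Single-array values carry no replicate error, and the number of arrays limits their precision.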

Additional observations from a re-analysis of the deposited data

How the results depend on the processing

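No paired analysis was possible because each group had 1 array. Of 107 recomputed values, 100 stayed within their interval or within 1.5 times the count. The 7 others came from rescaling. Many of the 100 could hardly move, so their number is no measure of stability. The probe rules touch the block only through ERCC5, the only measured member with more than 1 probe. Centring moves the block and the rest of chromosome 13 alike, and a cut at 1.5 can call no member that a cut at 1 did not. Centring on 34 ribosomal protein genes moved every gene up by 0.33 in depleted ACC-MESO1 cells and 0.29 in transfected MSTO-211H cells. The block median was then 0.24 in ACC-MESO1 and -0.21 in MSTO-211H. Members at -0.5 or less became 1 and 2, members at 0.5 or more on the depletion array became 8, and members at least 2-fold higher there became 2. A common spread for both arrays gave 1 member at least 2-fold higher on the depletion array. Rescaling also changes the share of all genes past each cut. That share is not given here on the new scales, so nothing about the block is read from these counts. Over all alternatives, the block median on the transfection array ran from -0.51 to -0.21, and its difference from the rest of chromosome 13 from -0.28 to -0.25. Including the unlisted genes between members, an alternative chosen after seeing the data, was among the 100. At 1.5 in size, no call was made on either array. Channel intensities were not used here, so dim probes could not be told from bright ones, and without a dye swap a dye effect of a probe is part of its ratio.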
